A study of Mus musculus with 9 samples.

Results

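Gdf3 and 9 further genes of the transforming growth factor beta (TGF-beta) family were followed across 3 genotypes of mouse macrophage: the ligand genes Gdf3, Gdf15, Tgfb1 and Inhba, the receptor genes Tgfbr1, Tgfbr2 and Acvrl1, and the SMAD genes Smad2, Smad3 and Smad7. They were chosen by symbol, as ligands, receptors and signal carriers of the family, with earlier results of these data known. They make up 10 of the 55401 gene IDs in the count table and 10 of the 13501 genes with enough reads to be tested. The cells were peritoneal macrophages drawn into the abdominal cavity with thioglycollate, an irritant broth, and collected for poly(A) RNA sequencing after brief adherence in serum-containing medium. Group WT came from wild-type mice, SA from mice homozygous for Stat6 S807A and SE from mice homozygous for Stat6 S807E, with 3 libraries in each group and no further agent named for any of them. The changes replace the serine at residue 807 of STAT6, the transcription factor activated by interleukin-4 and interleukin-13, with alanine, which cannot be phosphorylated, or with glutamate, whose negative charge is often used to imitate a phosphate. The labels name no Cre driver or other limit of the mutations to macrophages. The sources used here give no strain, age or sex. Nothing in the labels says that the libraries of a group were made from different mice. The p-values therefore describe only how far these libraries scatter, which may be partly technical.

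TGF-beta family ligands are secreted dimers that bring together type I and type II receptor kinases. TGF-beta and activin ligands lead to phosphorylation of SMAD2 and SMAD3, bone morphogenetic protein (BMP) ligands to that of SMAD1, SMAD5 and SMAD9, and SMAD4 joins either branch, while SMAD6 and SMAD7 are inhibitory SMADs that the pathway induces as feedback. TGF-beta itself is secreted in a latent complex and has to be released before it can bind. In macrophages the family is known for restraining inflammatory activation and for the dialogue with matrix-producing cells, and Gdf3 is known as a macrophage gene under the control of the nuclear receptor PPAR-gamma.

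Library totals ranged from 17286617 to 24618608 counts. The 7 macrophage core markers, Adgre1, Csf1r and Cd68 among them, were all tested, with 2 called lower in SE than in WT and named beside Gdf3. The 7 markers summed to 18149 to 23277 CPM (counts scaled to a common library size) in WT, 18289 to 19033 in SA and 18152 to 20890 in SE. CPM here are scaled for library composition, and 3 counts correspond to 0.120 to 0.176 CPM, a limit that covers counting error only. edgeR's quasi-likelihood test at a Benjamini-Hochberg adjusted p under 0.05 called 549 genes between SA and WT (4.07% of those tested), 680 between SE and WT (5.04%) and 1376 between SE and SA (10.2%). These totals depended on single libraries: SA against WT gave 297 without WT3 and 308 without SA1, SE against WT gave 292 without WT3, 332 without SE1 and 1097 without WT2, and SE against SA gave 781 without SA2, 811 without SE1, 836 without SA1 and 908 without SA3. The third principal component of the libraries (14.6% of the variance) set WT2 and SE3 apart from WT1 and SE2. Without WT2 and SE3, or without WT1 and SE2, Gdf3 stayed called in SE, at log2 1.36 and 1.46 against WT and 1.67 and 1.62 against SA (edgeR adjusted p up to 1.93e-06). In bulk RNA, fewer cells of one kind and less RNA per cell cannot be told apart.

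Of the 10 members, Gdf3 was higher in SE than in both other genotypes, Inhba was higher in SA than in WT, and Smad7 was higher in SE than in SA. Tgfbr2 was slightly lower in SE than in SA, and Inhba was lower in SE than in SA, but both of these calls were lost when single libraries were left out. Gdf15, Tgfb1, Tgfbr1, Acvrl1, Smad2 and Smad3 passed the test in no comparison. In counts, 1 member of 10 rose and 0 fell between SA and WT, beside 1.97% of all tested genes called higher and 2.1% called lower. Between SE and WT 1 rose and 0 fell, beside 2.35% and 2.69% of all tested genes. Between SE and SA 2 rose and 2 fell, beside 4.77% and 5.42%. The median log2 fold change over the 10 members was -0.02, 0.05 and 0.00 in these comparisons, beside 0.00, 0.00 and 0.00 over all tested genes. The libraries of the groups did not overlap for 2 members between SA and WT (19.3% of all tested genes), for 4 between SE and WT (20.5%) and for 4 between SE and SA (28.3%). Since the 3 comparisons share groups, their values are given side by side and not as separate support for each other.

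**Figure D1:**
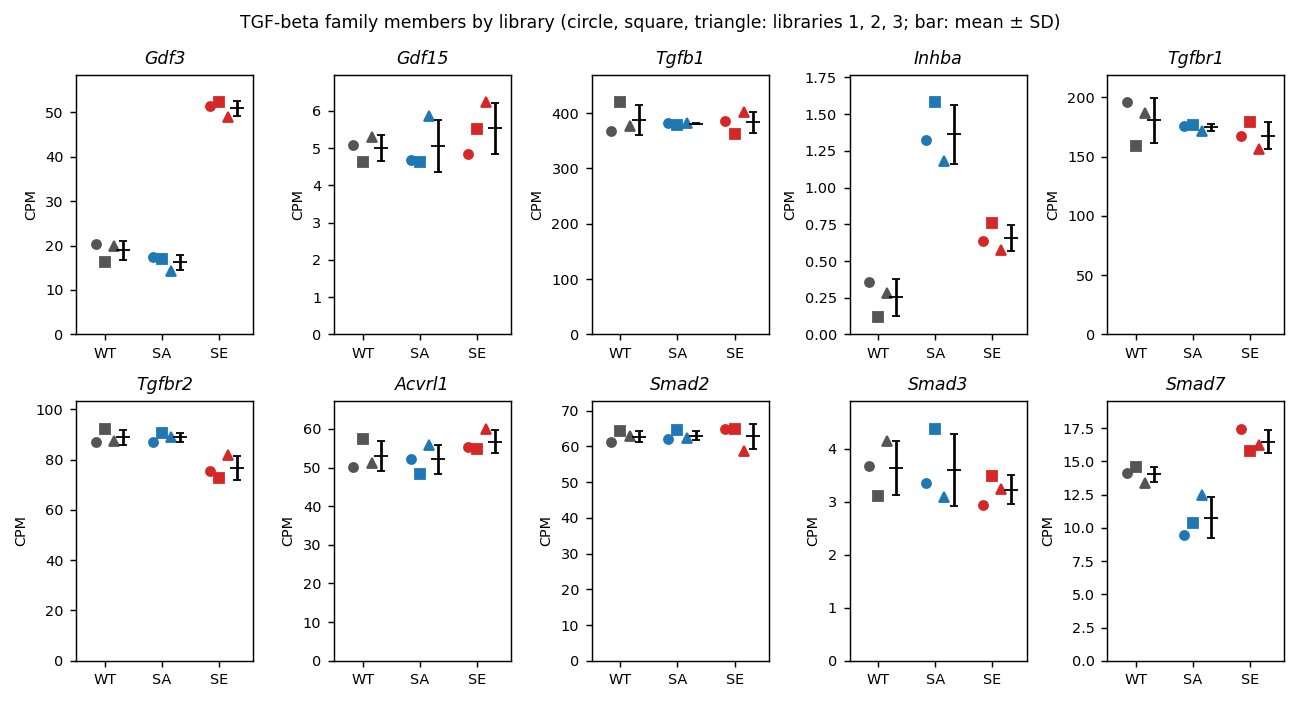
CPM of the 10 members in each library, with 1 panel per gene, the genotype on the x axis and CPM from 0 on the y axis; circles, squares and triangles are libraries 1, 2 and 3, and the bar is the mean ± SD (n = 3). The 3 SE libraries of Gdf3 lie at 49.0 to 52.2 CPM, above all 6 WT and SA libraries, while the 3 groups overlap for Gdf15, Tgfb1, Tgfbr1, Acvrl1, Smad2 and Smad3.

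Gdf3 (ENSMUSG00000030117, mm10 chromosome 6, 122605403 to 122610087, minus strand) encodes growth differentiation factor 3, a secreted ligand related to nodal and the BMPs. In WT it was measured at 20.5, 16.4 and 19.9 CPM (mean 18.9 ± 2.20, SD, n = 3), in SA at 17.4, 16.9 and 14.3 CPM (16.2 ± 1.68, SD, n = 3), and in SE at 51.4, 52.2 and 49.0 CPM (50.9 ± 1.69, SD, n = 3). All SE libraries lay above all others, with no overlap, and WT and SA overlapped. The difference between SE and WT was 2.68-fold (95% interval 2.34 to 3.06, log2 1.42 ± 0.09 standard error, edgeR adjusted p = 6.51e-08) and that between SE and SA 3.13-fold (2.74 to 3.59, log2 1.65 ± 0.09 standard error, edgeR adjusted p = 7.37e-09). Gdf3 had the 4th smallest p of all tested genes in both comparisons, which only describes a gene chosen with earlier results known. Among genes called higher, 21 of 317 had a larger fold change than Gdf3 between SE and WT, and 12 of 644 between SE and SA. The SA level was not separated from WT at log2 -0.23 ± 0.10 standard error (edgeR adjusted p = 0.288), although leaving out WT2 and SE3 together brought that p to 0.0275. No exon base of Gdf3 is shared with another annotated gene.

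Outside the mesothelial and fibroblast list given further on, some cell type markers also differed between SE and WT. Of these, Fcgr1, Ccr2 and Pecam1 differed between SE and SA as well, as Gdf3 did. Of the 7 macrophage core markers 2 fell and 0 rose in SE against WT, beside 2.69% and 2.35% of all tested genes. Fcgr1, an antibody receptor gene, had means of 83.4 ± 3.02 (WT), 98.7 ± 7.98 (SA) and 67.8 ± 2.97 CPM (SE) (SD, n = 3 each), and SE lay 1.23-fold below WT (edgeR adjusted p = 0.0157, lost without WT1, WT3 or SE2 at up to 0.125) and 1.46-fold below SA (6.44e-05). Mertk, a receptor gene for the uptake of dying cells, lay 1.27-fold below WT in SE (edgeR adjusted p = 0.0195, lost without WT3, SE1 or SE2 at up to 0.134). SE and SA overlapped for Mertk and were not separated (log2 -0.16, edgeR adjusted p = 0.268). Of the 2 monocyte markers Ccr2, a chemokine receptor gene, was tested, with 13.4 ± 2.04 CPM in SE (SD, n = 3), 1.52-fold below WT (edgeR adjusted p = 0.00951, lost without WT1, WT3 or SE1 at up to 0.062) and at log2 -0.59 against SA (0.00692). The sum of both ranged over 16.2 to 23.4 CPM (WT), 19.1 to 21.8 (SA) and 11.4 to 15.6 (SE), and Ly6c2 had 0 to 4 reads per library. Of 3 tested endothelial markers of 4, Pecam1, an adhesion molecule gene, rose 1.53-fold in SE against WT (edgeR adjusted p = 0.0156, lost without WT1 or SE1 at up to 0.165) and 1.53-fold against SA (0.0102, lost without SA1 or SE1 at up to 0.0735), while the defining gene Cdh5 had 0 to 7 reads per library. Kdr, of the same list, lay 1.43-fold below WT in SA (edgeR adjusted p = 0.0115). It did not pass in SE against WT (log2 -0.17, edgeR adjusted p = 0.464) or against SA (log2 0.35, 0.0628). Vwf was tested and passed in no comparison. The 4 endothelial markers summed to 326 to 417 CPM (WT), 326 to 380 (SA) and 383 to 475 (SE). Pecam1, at 5.31 to 10.6 CPM per library, was a small part of that sum. Of 2 tested eosinophil markers of 4, Ccr3 lay 1.74-fold below SA in SE (edgeR adjusted p = 0.00596). It did not pass against WT (log2 -0.59, 0.0602). Siglecf, the other, was at log2 0.32 against SA (0.0586). Of 3 tested platelet markers of 6, Pf4 stood 1.32-fold above SA in SE (0.0168) and did not pass against WT (0.596). The calls of Ccr3 and Pf4 were not followed over the alternative settings. The part of other cells or of a shift among macrophages in the level of Gdf3 was not tested.

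Likeness to Gdf3 was ranked over 9088 protein-coding genes with a mean of at least 5 CPM. Symbols of predicted genes, Riken clones and pseudogenes were left out. The 6 genes whose pattern over the 9 libraries was most like that of Gdf3 were Tmem26 (Pearson r of log2 CPM 0.988), Arg1 (0.987), Cblb (0.984), Mrps28 (0.982), Gatm (0.982) and Tes (0.978). The 9 libraries fall into 3 genotypes, so a high r mainly records which genotype was high. Arg1 encodes arginase 1, the enzyme that splits arginine and a classical marker of interleukin-4 activated macrophages. Its mean CPM was 45.5 in WT, 47.0 in SA and 121 in SE, and Tmem26, a membrane protein gene, averaged 64.3, 53.7 and 138 CPM. The remaining 4 showed smaller steps: Cblb, a ubiquitin ligase gene, went from means of 190.1 CPM (WT) and 185 (SA) to 242 (SE), and Gatm, which encodes an enzyme of creatine synthesis, 175, 171 and 225 CPM. The genes most opposed to Gdf3 were Mid1ip1 (r = -0.990), at 45.7, 48.1 and 37.6 CPM, and Limd2 (r = -0.984), at 39.2, 40.9 and 30.4 CPM. Within the pathway lists used below, Bhlhe40 (0.956), Id1 (0.925), Klf10 (0.890) and Smurf1 (0.836) came closest to Gdf3, and Tgfbr2 (-0.917), Tgfb3 (-0.894) and Thbs1 (-0.894) lay at the other end.

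The other ligands divided into an abundant one, low ones and ones with 0 reads. Tgfb1 (chromosome 7, 25687002 to 25705077), which encodes TGF-beta 1, was measured at 368, 419 and 377 CPM in the WT libraries, 382, 379 and 382 in the SA libraries and 385, 363 and 401 in the SE libraries. The groups overlapped, and the intervals of the fold change were narrow: 0.898 to 1.07 for SA against WT, 0.903 to 1.08 for SE against WT and 0.920 to 1.10 for SE against SA (edgeR adjusted p = 0.929, 0.924 and 0.958). Gdf15 (chromosome 8, 70629393 to 70632456), a stress-induced ligand that acts on the hindbrain receptor GFRAL, stood at 5.07, 4.64 and 5.31 CPM in the WT libraries, 4.67, 4.64 and 5.86 in the SA libraries and 4.85, 5.53 and 6.23 in the SE libraries. These overlapped too, and at this lower level the intervals were wider, from 0.812 to 1.24 for SA against WT and from 0.890 to 1.36 for SE against WT (edgeR adjusted p = 0.994 and 0.677).

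Inhba (chromosome 13, 16011851 to 16031621, plus strand) encodes the beta A chain whose dimer is activin A. It was scarce, with 9, 2 and 6 reads in the WT libraries, 30, 31 and 23 in SA, and 13, 13 and 11 in SE, or 0.252 ± 0.123 CPM (WT), 1.36 ± 0.202 (SA) and 0.657 ± 0.0918 (SE) (SD, n = 3 each). The 3 groups did not overlap, with SA highest and WT lowest. The rise in SA over WT was 5.03-fold (95% interval 2.99 to 8.45, log2 2.33 ± 0.35 standard error, edgeR adjusted p = 0.000542). SE was 2.43-fold above WT in the fit (1.34 to 4.41), which did not pass (edgeR adjusted p = 0.0853), and 2.07-fold below SA (edgeR adjusted p = 0.0371). The last call failed in 10 of 17 alternative settings, among them the removal of WT3, SA1, SA2, SA3, SE1, SE2 or SE3, with adjusted p of up to 0.146. Inhba met the read minimum in SA and SE but not in WT, and it was the only member that did not reach it in all 9 libraries.

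Several mesothelial and fibroblast markers moved with Inhba, so the values of that list are given here. The 11 markers together summed to 3.72 to 5.63 CPM in WT, 35.8 to 40.7 in SA and 7.33 to 11.4 in SE. In SA, Col1a1 (18.5 to 20.3 CPM) and Col1a2 (12.6 to 16.3 CPM) made up most of that sum. By edgeR, 3 of the 4 that could be tested, Col1a1, Col1a2 and Col3a1, rose in SA over WT, beside 1.97% of all tested genes. Col3a1 had 2, 3 and 6 reads in WT and 54, 31 and 35 in SA. It met the read minimum through SA alone, so that its difference was a condition of its being tested. The other tested marker, Pdgfrb, was 1.26-fold higher in SA than in WT. It did not pass (edgeR adjusted p = 0.622), and its WT and SA libraries overlapped. Dcn, a defining fibroblast gene, had 0 to 1 reads per library in WT, 5 to 10 in SA and 0 to 2 in SE. Pdgfra had 4 to 6 reads per library in SA and 0 to 1 in WT and SE, while Lum had 1 read in SA1 and 0 in every other library. The mesothelial genes Msln, Krt19 and Wt1 were at 0 reads in all 9 libraries. The part of such cells in the level of Inhba, and of the matrix and antagonist genes described further on, was not tested.

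Of the 33 ligand genes of the family, 6 had enough reads to be tested and 10 had 0 reads in every library. Apart from the 4 members the tested ones were Tgfb3 and Gdf9, both near 1 CPM. Tgfb3, which encodes the third TGF-beta isoform, was measured at 1.32, 1.23 and 0.884 CPM in the WT libraries, 1.41, 1.94 and 1.70 in the SA libraries and 0.686, 0.698 and 0.576 in the SE libraries. Every SE library lay below every WT and SA library, and the difference between SE and SA was 2.55-fold (edgeR adjusted p = 0.00466), while SE against WT did not pass (0.138). Tgfb3 shares 257 exon bases with Gm48008 and 163 with Gm37804 on the other strand. Whether their reads were kept apart from its own is not known, since the strand setting of the counting was not given. Gdf3 and Tgfb3 thus had opposite signs between SE and SA. Of the 6 tested ligands 1 rose and 2 fell in that comparison, beside 4.77% and 5.42% of all tested genes.

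Compared per kilobase of exon, which allows levels of different genes to be set beside each other, Tgfb1 led the ligands at 77.0 CPM per kilobase in WT, 75.6 in SA and 76.0 in SE. Gdf3 followed at 7.80 in WT, 6.69 in SA and 21.0 in SE. Gdf15 came next at 2.70, 2.73 and 2.99, and Inhba was far below at 0.0394, 0.213 and 0.103. The order Tgfb1, Gdf3, Gdf15, Inhba was the same in all 3 genotypes, with no overlap between neighbours among the libraries of a genotype.

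**Figure D2:**
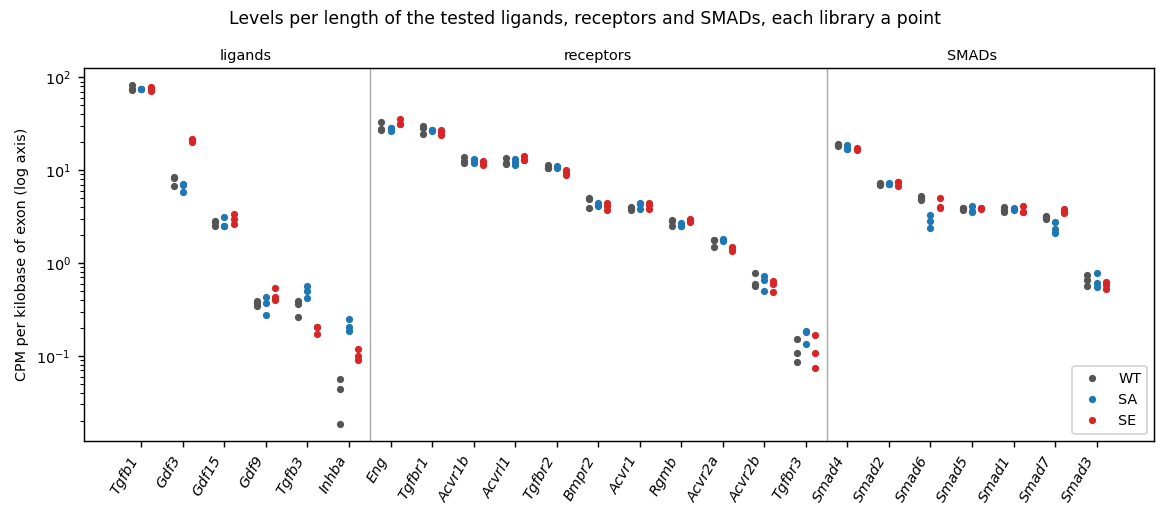
Level of every tested ligand, receptor and SMAD gene in CPM per kilobase of exon on a log axis, with genes on the x axis ordered within each role by their WT mean and 1 point per library (WT grey, SA blue, SE red). Tgfb1 lies near 77.0 in WT, Gdf3 shifts from 7.80 in WT to 21.0 in SE, and among the receptors Tgfbr2 lies at 10.9 in WT and 9.38 in SE.

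Tgfbr1 (chromosome 4, 47353222 to 47414931), the type I receptor kinase for TGF-beta, was measured at 196, 159 and 187 CPM in the WT libraries, 176, 177 and 172 in the SA libraries and 168, 179 and 156 in the SE libraries. The groups overlapped, and the fold change had intervals of 0.868 to 1.08 for SA against WT and 0.833 to 1.03 for SE against WT (edgeR adjusted p = 0.869 and 0.476). Acvrl1 (chromosome 15, 101128522 to 101145336), the type I receptor also called ALK1, stood at 50.3, 57.4 and 51.2 CPM in the WT libraries, 52.1, 48.3 and 55.9 in the SA libraries and 55.3, 54.9 and 60.1 in the SE libraries. It overlapped as well, with adjusted p of 0.956, 0.517 and 0.355 by edgeR in the 3 comparisons. Acvrl1 shares 127 exon bases with the antisense gene Gm16031, and without the strand setting it is not known whether their reads were kept apart.

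Tgfbr2 (chromosome 9, 116084293 to 116175360, minus strand), the type II receptor that binds TGF-beta first, was measured at 86.9, 92.3 and 87.5 CPM in WT (88.9 ± 2.98, SD, n = 3), 87.0, 90.5 and 89.0 in SA (88.8 ± 1.73), and 75.5, 72.8 and 82.0 in SE (76.8 ± 4.73). All 3 SE libraries lay below all 6 others. SE lay 1.16-fold below either group, which passed against SA (edgeR adjusted p = 0.0404) but not against WT (0.0613). The call against SA was lost without WT3, SA1, SA2, SA3, SE1 or SE2 (adjusted p up to 0.142), and a call against WT was gained without SE3 (0.0236). Of the 11 tested genes among 20 receptors and coreceptors Tgfbr2 was the only one called in any comparison, beside 13% of all tested genes. The activin receptor genes Acvr1b and Acvr2a and the coreceptor gene Eng were among the 10 that were not.

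The receptor-activated SMADs passed in no comparison. Smad2, which carries TGF-beta and activin signals, was measured at 61.2, 64.2 and 62.8 CPM in the WT libraries, 62.2, 64.6 and 62.3 in the SA libraries and 65.0, 64.9 and 58.9 in the SE libraries, with fold-change intervals of 0.917 to 1.10, 0.915 to 1.10 and 0.910 to 1.09. Smad3 (chromosome 9, 63646767 to 63757994), its partner in the same branch, was much scarcer at 3.68, 3.11 and 4.14 CPM in the WT libraries, 3.35, 4.38 and 3.08 in the SA libraries and 2.94, 3.49 and 3.25 in the SE libraries, and its intervals reached from 0.764 to 1.26 for SA against WT and from 0.678 to 1.14 for SE against WT. The groups overlapped for both genes, and no comparison passed (edgeR adjusted p of 0.98 or more for Smad2 and of 0.634 or more for Smad3). Per kilobase of exon, Smad3 had means of 0.657 CPM (WT), 0.651 (SA) and 0.582 (SE). Smad1 and Smad5, which carry BMP signals, and Smad4 passed in no comparison either.

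Smad6 and Smad7, the inhibitory SMADs, were the 2 tested SMADs that passed in at least 1 comparison. Smad7, whose product blocks type I receptors, was measured at 14.1, 14.6 and 13.4 CPM in WT (14.0 ± 0.582, SD, n = 3), 9.43, 10.4 and 12.5 in SA (10.8 ± 1.56), and 17.5, 15.8 and 16.2 in SE (16.5 ± 0.871). The groups did not overlap, with SA lowest and SE highest. SE exceeded SA by 1.54-fold (95% interval 1.32 to 1.79, log2 0.62 ± 0.11 standard error, edgeR adjusted p = 0.000982). Neither step from WT passed by itself: SA against WT was log2 -0.38 ± 0.11 standard error (edgeR adjusted p = 0.0528) and SE against WT log2 0.24 (0.222). The value of SA against WT lay close to the threshold and passed in DESeq2 (adjusted p = 0.0493), without the read minimum in edgeR (0.0319) and without SA3 (0.0179).

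Smad6 (chromosome 9, 63953076 to 64022059, minus strand), the other inhibitory SMAD and mainly a brake on BMP signals, was measured at 15.4, 16.7 and 16.1 CPM in WT (16.1 ± 0.676, SD, n = 3), 9.12, 10.6 and 7.71 in SA (9.14 ± 1.45), and 12.9, 12.6 and 16.1 in SE (13.9 ± 1.97). SA lay below both other groups with no overlap. It fell 1.75-fold against WT (edgeR adjusted p = 0.000459), SE was 1.52-fold above SA (0.00448), and SE against WT did not pass (0.366). Among the 7 tested SMADs of 8, the counts were 0 rises and 1 fall between SA and WT, none called between SE and WT, and 2 rises between SE and SA. Beside these stand 4.07%, 5.04% and 10.2% of all tested genes called in either direction.

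Of the called ligand and SMAD genes, Gdf3 and Smad7 had no promoter entry in the RefSeq table (GRCm38.p6), and no window is given for Tgfb3. Inhba, Tgfbr2 and Smad6, a called ligand, receptor and SMAD gene, had an entry. The 250 bases before their start site are shown as the stretch where binding sites for STAT6 and SMAD proteins would be looked for first. They are chr13:16011601-16011850 (plus strand) for Inhba, chr9:116175364-116175613 (minus strand) for Tgfbr2 and chr9:64022060-64022309 (minus strand) for Smad6, printed 5′ to 3′ on the strand of the gene, with motif matches in capitals.
Inhba: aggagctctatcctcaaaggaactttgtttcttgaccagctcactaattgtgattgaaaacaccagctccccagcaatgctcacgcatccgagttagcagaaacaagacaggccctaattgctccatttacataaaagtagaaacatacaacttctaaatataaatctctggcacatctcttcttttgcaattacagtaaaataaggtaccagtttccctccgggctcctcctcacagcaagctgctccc
Tgfbr2: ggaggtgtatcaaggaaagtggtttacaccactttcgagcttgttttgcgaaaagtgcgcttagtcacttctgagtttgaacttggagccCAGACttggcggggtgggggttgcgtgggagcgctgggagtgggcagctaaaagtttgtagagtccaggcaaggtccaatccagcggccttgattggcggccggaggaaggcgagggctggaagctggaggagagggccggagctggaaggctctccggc
Smad6: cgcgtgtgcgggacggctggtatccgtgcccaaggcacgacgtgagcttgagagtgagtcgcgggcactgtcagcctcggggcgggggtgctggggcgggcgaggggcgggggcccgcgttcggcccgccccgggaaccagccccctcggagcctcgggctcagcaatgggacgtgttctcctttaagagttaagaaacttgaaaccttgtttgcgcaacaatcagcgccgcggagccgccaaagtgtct
They were searched on both strands for TTCNNNNGAA, the spacing preferred by STAT6, which 5.85% of 32851 windows of the same length hold, for the SMAD box CAGAC (42.2%) and for the GC element GGCGCC (9.59%). The single match was 1 CAGAC in the Tgfbr2 window, 160 bases before the start site. The windows of Inhba and Smad6 hold none of these letters. Of the 10 members, 6 had an entry.

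Genes that hold TGF-beta latent or release it changed in several directions. Of 13 tested genes of 16 on this list, 4 rose and 0 fell between SA and WT, beside 1.97% and 2.1% of all tested genes. Between SE and WT 1 rose and 1 fell (2.35% and 2.69%), and between SE and SA 2 rose and 3 fell (4.77% and 5.42%). Thbs1 encodes thrombospondin 1, which activates latent TGF-beta, and was measured at 10.7, 12.2 and 12.1 CPM in the WT libraries, 18.4, 22.2 and 21.0 in the SA libraries and 6.81, 6.75 and 7.91 in the SE libraries. The genotypes moved it to opposite sides of WT without overlap: SA was 1.76-fold higher (edgeR adjusted p = 6.36e-05), SE 1.62-fold lower (0.0012), and SE lay 2.86-fold below SA (1.05e-07). Platelets also carry Thbs1, and the 6 platelet markers summed to 34.8 to 43.0 CPM in WT, 33.4 to 36.3 in SA and 40.3 to 41.9 in SE. Thbs1 shares 208 exon bases with the lincRNA gene Gm29233 on the other strand.

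Lrrc32 encodes GARP, which holds latent TGF-beta at the cell surface, and rose in both mutants: 14.5, 16.7 and 13.6 CPM in the WT libraries, 24.6, 21.4 and 21.2 in the SA libraries and 26.1, 23.1 and 24.7 in the SE libraries. The increase was 1.51-fold in SA (edgeR adjusted p = 0.000928) and 1.66-fold in SE (0.000187), and SE and SA were not separated (0.413). Nrros, the related anchor of myeloid cells, was much more abundant at 319 ± 11.9 CPM (WT), 368 ± 10.3 (SA) and 309.9 ± 19.2 (SE) (SD, n = 3 each). SE lay 1.19-fold below SA (edgeR adjusted p = 0.0129, lost without SA2 or SE2 at up to 0.0585). Mmp14, the gene of a membrane-bound protease that cuts matrix, had means of 24.8 ± 3.21 CPM (WT), 41.3 ± 1.57 (SA) and 25.9 ± 4.58 (SE) (SD, n = 3 each). SA exceeded WT by 1.67-fold (edgeR adjusted p = 0.000559), and SE lay 1.60-fold below SA (0.000902).

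Plau, the urokinase gene, had means of 118 ± 4.55 CPM (WT), 102 ± 12.0 (SA) and 134 ± 5.29 (SE), and Ltbp3, a latent TGF-beta binding protein gene, 52.4 ± 7.45, 41.8 ± 5.13 and 59.5 ± 7.63 CPM (SD, n = 3 each). SE exceeded SA for both, for Plau by 1.31-fold (edgeR adjusted p = 0.00231) and for Ltbp3 by 1.42-fold (0.00697), and neither passed against WT. Without strand information the value of Ltbp3 is less certain than that of Plau. Itgb3, an integrin beta chain gene, was 1.18-fold higher in SA than in WT (edgeR adjusted p = 0.0471), a call lost without any one of the WT or SA libraries or without SE1 (up to 0.212). Itgav, Itgb1, Itgb5, Itgb8, Furin and Ltbp2 passed in no comparison.

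**Figure D3:**
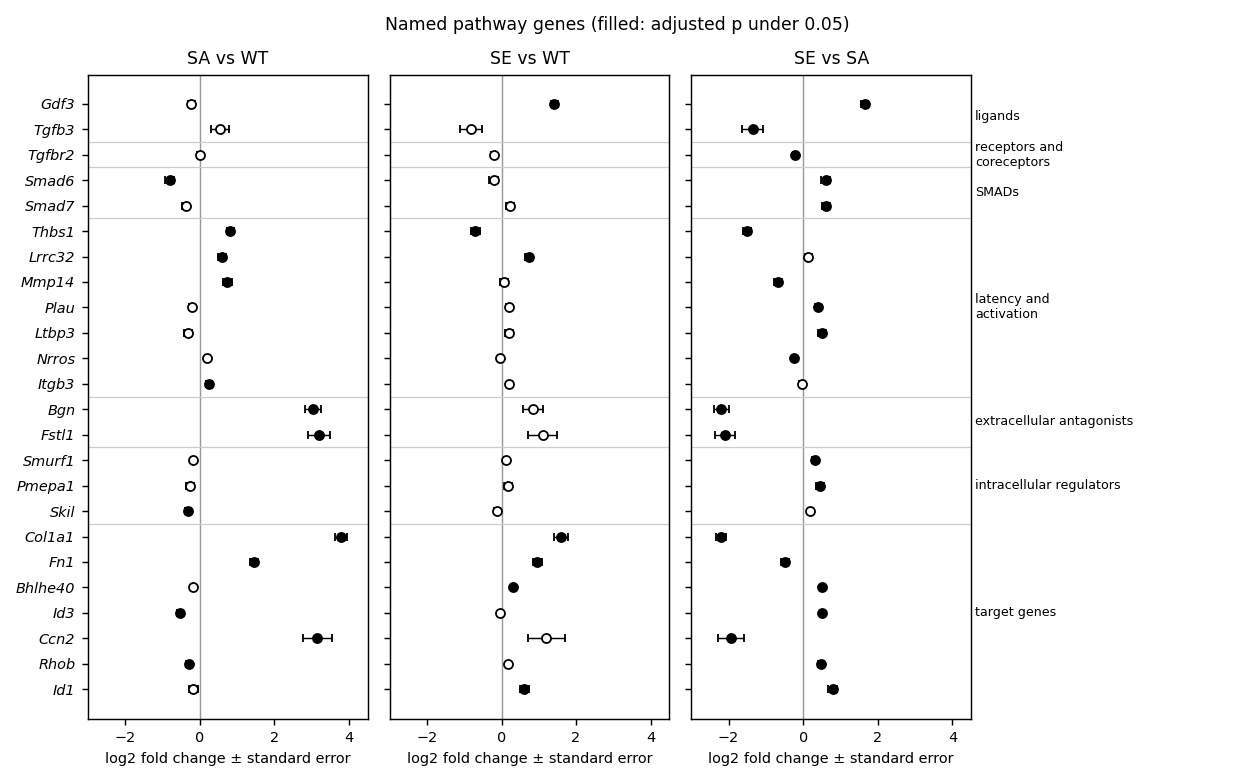
Log2 fold change ± standard error from the edgeR fit for each named pathway gene of at least 1 CPM, grouped by role, in the 3 comparisons; filled points have an adjusted p under 0.05. Gdf3 is the ligand shifted to the right in both comparisons that involve SE, Thbs1 lies right of 0 in SA against WT and left of 0 in SE against WT, and Bgn, Fstl1 and Col1a1 are the points farthest right in SA against WT beside Ccn2.

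Among secreted antagonists and binding proteins, the genes that changed were Bgn, Fstl1 and Grem1. Of 6 tested genes of 13, 3 rose in SA over WT (1.97% of all tested genes), none passed between SE and WT (5.04% in either direction), and 3 fell in SE against SA (5.42%). Bgn, the gene of the matrix proteoglycan biglycan, had means of 0.725 ± 0.224 CPM (WT), 6.08 ± 0.464 (SA) and 1.32 ± 0.245 (SE) (SD, n = 3 each), 8.18-fold higher in SA than in WT (edgeR adjusted p = 2.55e-07). Fstl1, a follistatin-like gene of stromal cells, was measured at 0.280, 0.294 and 0.279 CPM in the WT libraries, 2.51, 2.60 and 2.83 in the SA libraries and 0.490, 0.465 and 0.890 in the SE libraries, 9.15-fold higher in SA than in WT (4.47e-06). Grem1, a BMP antagonist gene named here after its values were seen, had 2, 2 and 5 reads in WT and 35, 52 and 40 in SA (14.0-fold, edgeR adjusted p = 3.86e-05). Fstl1 and Grem1 met the read minimum through SA alone, so that their difference was a condition of their being tested. Bambi, Twsg1 and Dand5 were tested and not called.

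Among intracellular regulators, of which 20 of 21 were tested, 0 rose and 1 fell between SA and WT, none passed between SE and WT, and 2 rose between SE and SA. Of all tested genes, 4.07%, 5.04% and 10.2% were called in these comparisons, so the regulators as a list did not stand out. Smurf1, a ubiquitin ligase that works with the inhibitory SMADs, had means of 65.8 ± 1.65 CPM (WT), 58.0 ± 1.62 (SA) and 71.6 ± 2.87 (SE) (SD, n = 3 each), and SE exceeded SA by 1.23-fold (edgeR adjusted p = 0.00376). Pmepa1, a feedback inhibitor gene, stood 1.36-fold above SA in SE (edgeR adjusted p = 0.0143, lost without SA1, SA3 or SE3 at up to 0.078). Skil, which encodes the SMAD corepressor SnoN, was 1.24-fold lower in SA than in WT (edgeR adjusted p = 0.0192, lost with scaling by library totals alone, and without WT1, WT3, SA1 or SA3, at up to 0.13). Ski, Smurf2, Tgif1 and the coactivators Crebbp and Ep300 passed in no comparison.

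Known transcriptional targets of the family divided into groups that moved apart. Of 19 tested genes of 20, 4 rose and 4 fell between SA and WT, beside 1.97% and 2.1% of all tested genes. Between SE and WT 4 rose and 1 fell (2.35% and 2.69%), and between SE and SA 8 rose and 5 fell (4.77% and 5.42%). The list medians were log2 -0.13, 0.15 and 0.12. Among the targets called higher in SA than in WT were Ccn2, Fn1 and Col1a1, which encode matrix or matrix-associated proteins. Those called lower in SA were Id2, Id3, Rhob and Skil.

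The Id genes, inhibitors of helix-loop-helix transcription factors and classical BMP targets, were lower in SA or higher in SE. Id3 was measured at 163, 175 and 173 CPM in WT (170.1 ± 6.13, SD, n = 3), 119, 113 and 119 in SA (117 ± 3.48), and 169, 155 and 171 in SE (165 ± 8.63). All SA libraries lay below all others, by 1.46-fold against WT (edgeR adjusted p = 2.16e-05) and 1.41-fold against SE (3.51e-05), and SE was not separated from WT (0.772). Id1 was measured at 11.9, 11.4 and 10.5 CPM in the WT libraries, 11.3, 9.22 and 9.30 in the SA libraries and 19.9, 15.0 and 16.7 in the SE libraries. Here it was SE that stood apart, 1.53-fold above WT (edgeR adjusted p = 0.0048) and 1.73-fold above SA (0.000298). Id2, named after its values were seen, was 221, 198 and 209 CPM in the WT libraries, 165, 169 and 167 in the SA libraries and 234, 246 and 202 in the SE libraries. SE exceeded SA by 1.36-fold (edgeR adjusted p = 0.00048), and SA was 1.25-fold below WT (0.0109, lost without WT3, SA1, SA2 or SA3 at up to 0.0816). All 3 Id genes and both inhibitory SMADs were higher in SE than in SA.

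**Figure D4:**
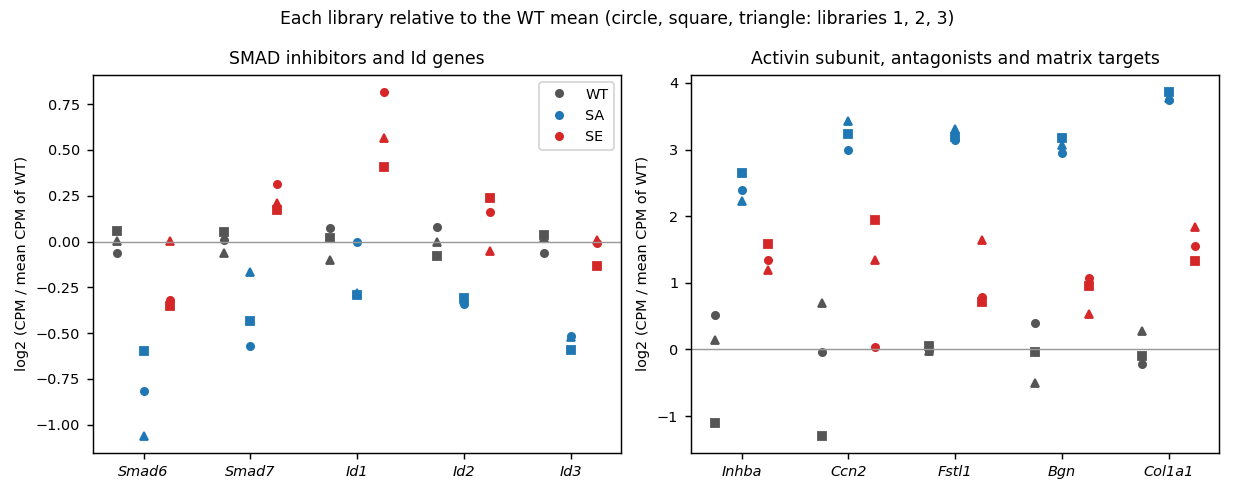
Log2 of each library's CPM over the WT mean, for the inhibitory SMADs and Id genes (left) and for Inhba, antagonists and matrix targets (right), with circles, squares and triangles for libraries 1, 2 and 3 and grey, blue and red for WT, SA and SE. On the left the SA libraries lie at or below the WT mean for all 5 genes; on the right the SA libraries lie above all WT and SE libraries for all 5 genes.

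Col1a1, the gene of a collagen I chain and also a fibroblast marker, was measured at 1.20, 1.29 and 1.68 CPM in the WT libraries, 18.5, 20.3 and 18.9 in the SA libraries and 4.07, 3.49 and 4.97 in the SE libraries. It rose 13.8-fold in SA (edgeR adjusted p = 6.91e-11) and 3.02-fold in SE (5.67e-05) over WT. Ccn2, the connective tissue growth factor gene, had means of 0.287 ± 0.174 CPM (WT), 2.69 ± 0.396 (SA) and 0.711 ± 0.406 (SE) (SD, n = 3 each), 8.85-fold higher in SA than in WT (edgeR adjusted p = 7.44e-05), and like Fstl1 it met the read minimum through SA alone. Fn1, the fibronectin gene, which macrophages also express, averaged 13.1 ± 1.60, 35.6 ± 4.86 and 25.3 ± 3.13 CPM and rose in both mutants, 2.73-fold in SA (edgeR adjusted p = 1.09e-06) and 1.94-fold in SE (0.000142). Fn1 shares 292 exon bases with the antisense gene Apol7d. By mean, Col1a1, Ccn2 and Fn1 followed the same order of genotypes as Inhba, SA, then SE, then WT. The mesothelial and fibroblast marker sum had this order too. Col1a1 is 1 of the 11 markers in that sum and a large part of it in SA, so its agreement with the sum is built in.

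Bhlhe40 and Rhob took the order of Smad7 instead. Bhlhe40, a transcriptional repressor gene, had means of 273 ± 5.52 CPM (WT), 240.3 ± 3.61 (SA) and 338 ± 8.71 (SE) (SD, n = 3 each). SE exceeded WT by 1.24-fold (edgeR adjusted p = 0.00186) and SA by 1.40-fold (1.24e-05), and the gene shares 118 exon bases with the antisense gene 0610040F04Rik. Rhob, a small GTPase gene, averaged 153 ± 7.91, 124 ± 10.4 and 173 ± 7.21 CPM. SE exceeded SA by 1.39-fold (edgeR adjusted p = 0.000192), and SA lay 1.23-fold below WT (0.0162, lost without WT3, SA1 or SA2 at up to 0.115). Tgfbi, a target abundant in macrophages, and Junb passed in no comparison.

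Across all pathway lists, 78 of 127 distinct genes were tested. Of these, 12 rose and 5 fell between SA and WT, beside 1.97% and 2.1% of all tested genes. Between SE and WT 6 rose and 2 fell (2.35% and 2.69%), and between SE and SA 13 rose and 14 fell (4.77% and 5.42%). In at least 1 comparison 31 were called, beside 13% of all tested genes. Leaving the 10 members aside, 27 of 68 were called in at least 1 comparison. Of the 78 tested genes, 72 reached the read minimum of 0.506 CPM in all 9 libraries, so that the other 6 may have been tested because of the group in which they were high.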

How the data were processed

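The authors deposited raw counts of reads per Ensembl mouse gene for 9 poly(A) RNA libraries. Per the submitters' processing notes, the tools included HISAT2 2.1.0 and featureCounts on build mm10. For featureCounts the version, annotation release, strand setting and treatment of multi-mapping reads were not given in the sources used here. IDs were given symbols and positions from GENCODE M21 (55141 of 55401 matched). All 37 mitochondrial genes had 0 counts, so no mitochondrial share was available.

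One fit of the 9 libraries was made with edgeR 4.0.16 (R 4.3.3): filterByExpr (minimum count 10, minimum total 15), TMM scaling and a robust quasi-likelihood model of genotype alone (6 residual degrees of freedom, biological coefficient of variation 6.75%). Tests were 2-sided, with Benjamini-Hochberg adjustment over 13501 genes, and called at 0.05. The procedure was tested on simulated data. CPM are TMM-scaled, and CPM per kilobase divides by the union of exons. Likeness to Gdf3 used log2 CPM with a prior count of 2, over protein-coding genes without predicted genes, Riken clones and pseudogenes. Alternatives were library totals alone, DESeq2 1.42.0 or its size factors, no filter, only the genotypes compared, a replicate block, each library left out, and WT2 with SE3 or WT1 with SE2 left out.

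The members, lists and tests were chosen with earlier results of these data known. The 10 members were always named. From each further list every called gene of at least 1 CPM was named, at most 8 per list by smallest adjusted p, and the 6 genes most and 2 least like Gdf3. Exceptions are marked in the text, and 1 gene named by the rule is not reported here.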

Additional observations from a re-analysis of the deposited data

How the results depend on the processing

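Over 17 alternatives to the fit, the direction of each member's called difference held, and the calls of Gdf3 in SE against WT and against SA (adjusted p up to 4.42e-06 and 5e-07), of Inhba in SA against WT (up to 0.0058) and of Smad7 in SE against SA (up to 0.0125) were made in 17 of 17. Between SA and WT, 2 members were called by DESeq2, with no filter and without WT2 and SE3 together, where Smad7 or Gdf3 joined Inhba, and 903 of all genes were called without WT2 and SE3 together. Leaving out 1 library gave 297 to 652 genes, 1 to 2 members and 13 to 20 pathway genes. Between SE and WT, Tgfbr2 joined Gdf3, giving 2 members, with library totals alone, with DESeq2 and without WT2 and SE3 together. All genes called there were 438 in a fit of only the 2 genotypes, 1215 without WT2 and SE3 (13 pathway genes) and 372 without WT1 and SE2. Leaving out 1 library gave 292 to 1097 genes, 1 to 2 members and 7 to 11 pathway genes. Between SE and SA, leaving out 1 library gave 781 to 1762 genes, 2 to 4 members and 21 to 31 pathway genes. With library totals alone the genes called higher in SE than in SA fell from 46.8% to 33.8% of those called, with the members at 4.

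No pairing by equal library numbers was seen: same-numbered libraries deviated together with r of -0.19 to 0.10, other libraries with r of -0.26 to 0.27. With 3 libraries per group such values cannot exclude a pairing. With the replicate number as a block, 500, 568 and 1189 genes were called in the 3 comparisons, and 2 members between SE and SA (Gdf3 and Smad7). The depth limits Inhba most, at 2 to 31 reads per library. The cause of these shifts was not tested.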
